A study of Mus musculus with 4 samples.

Results

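Of the 20807 protein-coding genes that GENCODE vM21 places on the 19 mouse autosomes, 6656 (32.0%) had no ATAC-seq peak within 1 kb of any annotated transcript start site in any of 4 libraries. These genes are called genes without a start-site peak. They were chosen by the peak calls of these same libraries, so the lack of a peak is the rule that defines them and not a result. The other 14151 genes had a start-site peak in at least 1 library, and 12775 of them had one in all 4.

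The libraries came from CD4+ T cells of C57BL/6 mice, males of 7 weeks without an engineered allele. Naive cells were sorted from the spleen as CD62Lhigh CD44low CD25- and kept for 48 h on plate-bound anti-CD3 (5 µg/ml) with soluble anti-CD28 (1 µg/ml), human TGF-b1 (5 ng/ml) and mouse IL-2 (10 ng/ml), the mixture that drives naive cells toward induced regulatory T cells (iTreg). Cells given no IL-4 (iTreg+PBS) and cells given 15 ng/ml of mouse IL-4 (iTreg+IL-4) gave 2 libraries each. The study describes its replicates as pooled, biologically independent samples, and the number of animals in a pool is not given in the sources used here.

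In ATAC-seq, a transposase inserts sequencing adapters where DNA is free of nucleosomes, so the start sites of genes that a cell uses usually carry a peak. Start sites of genes reserved for other tissues are as a rule wrapped in nucleosomes and give none. Promoters rich in the dinucleotide CpG often stay open in every cell type, while promoters poor in CpG tend to open only where the gene is used. A gene with a closed start site can still hold open DNA in its introns, for example an enhancer of a neighbouring gene or an alternative promoter.

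The 6 promoters that follow show the contrast in base composition among genes without a start-site peak. Each runs from 250 bases before to 50 bases after a RefSeq transcript start on GRCm38.p6, 5′ to 3′ on the strand of the gene, with each CpG in capitals. Olfr1508 (an olfactory receptor), Vmn2r1 (a vomeronasal pheromone receptor), Alb (serum albumin, made by the liver) and Il13 (interleukin-13, a cytokine of type 2 helper T cells) stand for the CpG-poor majority. Mark1 (a kinase that phosphorylates microtubule-associated proteins) and Six2 (a homeodomain factor of kidney progenitors) stand for the CpG-rich minority. A RefSeq promoter was found for 4824 of the 6656 genes.
Olfr1508, chr14:52467412-52467711, reverse strand: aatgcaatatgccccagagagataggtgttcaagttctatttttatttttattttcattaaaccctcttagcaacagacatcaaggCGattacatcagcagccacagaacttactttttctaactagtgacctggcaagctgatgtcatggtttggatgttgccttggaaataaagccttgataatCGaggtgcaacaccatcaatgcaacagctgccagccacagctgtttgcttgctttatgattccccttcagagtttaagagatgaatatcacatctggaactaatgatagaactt
Vmn2r1, chr3:64081392-64081691, forward strand: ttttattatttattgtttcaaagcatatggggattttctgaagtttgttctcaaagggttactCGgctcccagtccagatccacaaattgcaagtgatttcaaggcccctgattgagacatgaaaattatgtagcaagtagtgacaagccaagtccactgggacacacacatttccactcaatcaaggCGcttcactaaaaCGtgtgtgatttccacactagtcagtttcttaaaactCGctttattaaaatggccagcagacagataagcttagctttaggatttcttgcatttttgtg
Alb, chr5:90460620-90460919, forward strand: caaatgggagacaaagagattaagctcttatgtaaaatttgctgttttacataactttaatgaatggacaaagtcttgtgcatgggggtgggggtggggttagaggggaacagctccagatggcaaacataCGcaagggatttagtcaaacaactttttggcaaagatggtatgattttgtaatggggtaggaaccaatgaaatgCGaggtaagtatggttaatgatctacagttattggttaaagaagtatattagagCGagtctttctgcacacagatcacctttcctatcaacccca
Il13, chr11:53634653-53634952, reverse strand: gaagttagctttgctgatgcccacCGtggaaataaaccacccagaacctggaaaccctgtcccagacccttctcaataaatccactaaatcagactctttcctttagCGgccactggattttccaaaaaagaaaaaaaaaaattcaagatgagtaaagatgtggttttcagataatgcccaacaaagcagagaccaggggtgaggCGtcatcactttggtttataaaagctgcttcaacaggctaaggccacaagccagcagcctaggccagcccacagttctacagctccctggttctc
Mark1, chr1:184999500-184999799, reverse strand: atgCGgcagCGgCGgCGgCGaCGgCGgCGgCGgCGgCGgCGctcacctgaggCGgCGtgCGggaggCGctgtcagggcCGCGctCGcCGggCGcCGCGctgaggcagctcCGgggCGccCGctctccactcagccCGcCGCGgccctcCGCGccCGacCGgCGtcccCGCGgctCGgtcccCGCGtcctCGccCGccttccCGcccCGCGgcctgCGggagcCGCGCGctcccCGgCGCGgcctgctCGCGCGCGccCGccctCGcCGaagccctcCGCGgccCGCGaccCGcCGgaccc
Six2, chr17:85688205-85688504, reverse strand: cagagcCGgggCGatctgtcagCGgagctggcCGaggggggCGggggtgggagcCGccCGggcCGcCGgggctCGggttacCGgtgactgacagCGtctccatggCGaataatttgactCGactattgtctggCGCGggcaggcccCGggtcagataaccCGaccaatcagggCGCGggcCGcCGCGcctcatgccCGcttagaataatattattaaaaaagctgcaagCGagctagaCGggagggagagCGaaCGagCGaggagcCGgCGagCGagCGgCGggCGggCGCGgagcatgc

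The windows of Olfr1508, Vmn2r1, Alb and Il13 held 2, 4, 3 and 3 CpG, and those of Mark1 and Six2 held 64 and 37. Over all 6656 genes, the 300 bases around the 5′ end of the gene record held a median of 3 CpG, with a median observed-over-expected CpG of 0.175. Over the 14151 other genes, the medians were 18 CpG and 0.714. Only 516 genes without a start-site peak (7.75%) had a ratio above 0.6, against 8946 (63.2%) of the others, and 934 (14.0%) had no CpG at all, against 134 (0.947%). The share of genes without a start-site peak fell from 74.8% of the 4928 genes with a ratio under 0.2 to 3.49% of the 5447 genes with a ratio of 0.8 or more. These are descriptions of reference sequence, with no test.

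**Figure D1:**
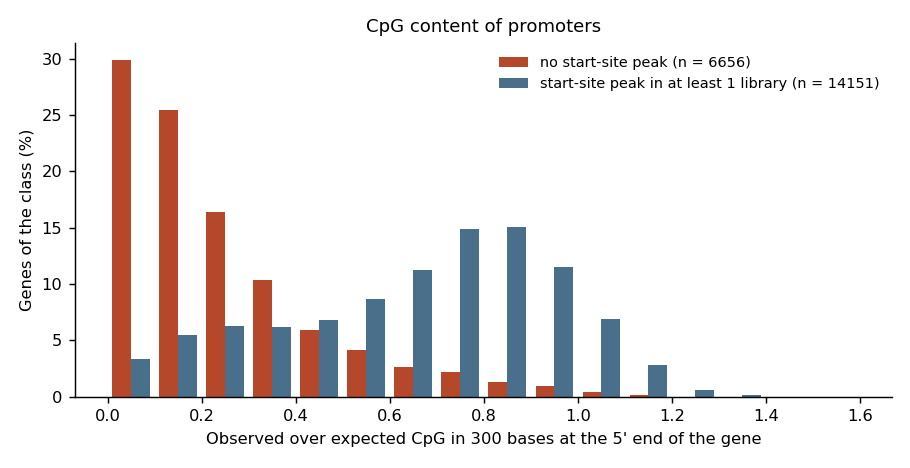
Observed over expected CpG in the 300 bases around the 5′ end of the gene (x axis, no unit, in steps of 0.1) against the percent of each class of genes (y axis), with red bars for the 6656 genes without a start-site peak and blue bars for the 14151 others. The red bars are highest at the lowest ratios (median 0.175), and the blue bars peak where the ratio is above 0.6 (median 0.714).

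Short promoter motifs followed the same divide. A match to TATAAA (the TATA box) on either strand stood in the windows of 23.3% of genes without a start-site peak, 7.73% of the others and 12.7% of all. A match to GGGCGG (the GC box) stood in 13.4%, 58.0% and 43.7% of these classes, and a match to CCGGAA (the core bound by ETS factors) in 4.45%, 24.2% and 17.9%. A match to CCAAT (the CCAAT box) differed least, at 40.1%, 37.9% and 38.6%. GGGCGG and CCGGAA each contain a CpG, so their shares move with CpG content, and a match is only a string of letters and not a bound site. TATAAA holds only A and T. The bases G and C made up a median of 46.7% of the windows of genes without a start-site peak and 59.3% of the others. The part of base composition in the TATAAA shares was not tested.

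Among genes with a RefSeq promoter and an established symbol, and so none of the 168 on chromosome 18, where no RefSeq promoter was used here, the 8 highest ratios in that promoter belonged to Jph3, Mark1, Ccl21b, Cadps2, Six2, Evx2, Rasef and Clstn2, with values between 1.11 (Clstn2) and 1.20 (Jph3). Jph3 encodes a junctophilin of neurons, Cadps2 a factor of secretory vesicle release, Evx2 a homeodomain factor and Clstn2 a calsyntenin of synapses. For Clstn2 the nearest peak of any library was 216973 bases away, and for Cadps2 it was 102954 bases away. Ccl21b, a chemokine of lymphoid stroma, lies in near-identical copies: 0% of the 50-base words within 1 kb of its 5′ end occurred once in the genome, and the part of this in the missing peak was not tested. Evx2 had a peak 308 bases from a RefSeq start that GENCODE vM21 does not list.

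Among the families with the highest shares without a start-site peak were many of sensory, secreted and epidermal proteins. Olfactory receptors made up 1103 of the 6656 genes, out of 1128 such genes on the autosomes (97.8%). Vomeronasal receptors added 204 of 207 type 1 genes and 119 of 119 type 2 genes, and these 3 classes together gave 1426 genes, or 21.4% of all genes without a start-site peak. Further receptors for odours, tastes and irritants followed the same pattern, with 15 of 15 trace amine-associated receptors, 37 of 38 taste receptors and 19 of 20 Mas-related receptors.

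Secreted proteins formed the next block. All 26 prolactin family genes (placental hormones) and all 15 exocrine gland secreted peptides (pheromones) lacked a start-site peak. So did 62 of 64 defensins (antimicrobial peptides), 32 of 34 major urinary proteins and lipocalins, 32 of 34 secretoglobins and androgen-binding proteins, and 59 of 79 pancreatic and mast cell proteases. Many of these genes lie in repeated sequence. Fewer than 50% of the 50-base words within 1 kb of the 5′ end occurred once in the genome for 17 of the 32 major urinary proteins and lipocalins. The same held for 16 of the 32 secretoglobins and androgen-binding proteins, 20 of the 62 defensins and 1 of the 59 proteases. The part of this in the missing peaks was not tested. Among the proteins of skin and hair, 54 of 57 keratin-associated proteins, 43 of 44 epidermal differentiation proteins and 44 of 49 keratins were without one. Metabolic families of liver and gut held 18 of 19 carboxylesterases (ester hydrolysis), 71 of 100 cytochromes P450 (oxidation of steroids and drugs), 46 of 60 serpins (protease inhibitors) and 34 of 43 UDP glucuronosyltransferases and sulfotransferases (conjugation of drugs and bilirubin).

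Families that every cell needs stood at the other end. Of 54 families with at least 10 genes, 17 had at least 90% of their genes without a start-site peak and 4 had under 10%, beside 32.0% over all genes. Besides the families named so far, the 17 included Obox and oogenesin genes (11 of 11, known from oocytes), PRAME-like genes (10 of 11) and SPEER and takusan-like genes (9 of 10). The 4 under 10% were mitochondrial complex I (1 of 44), replication-dependent histones (4 of 67), the proteasome (3 of 49) and ribosomal proteins (9 of 95). Predicted genes with Gm or Rik names contributed 1103 of 1784, and 2757 genes fell in no family listed here.

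**Figure D2:**
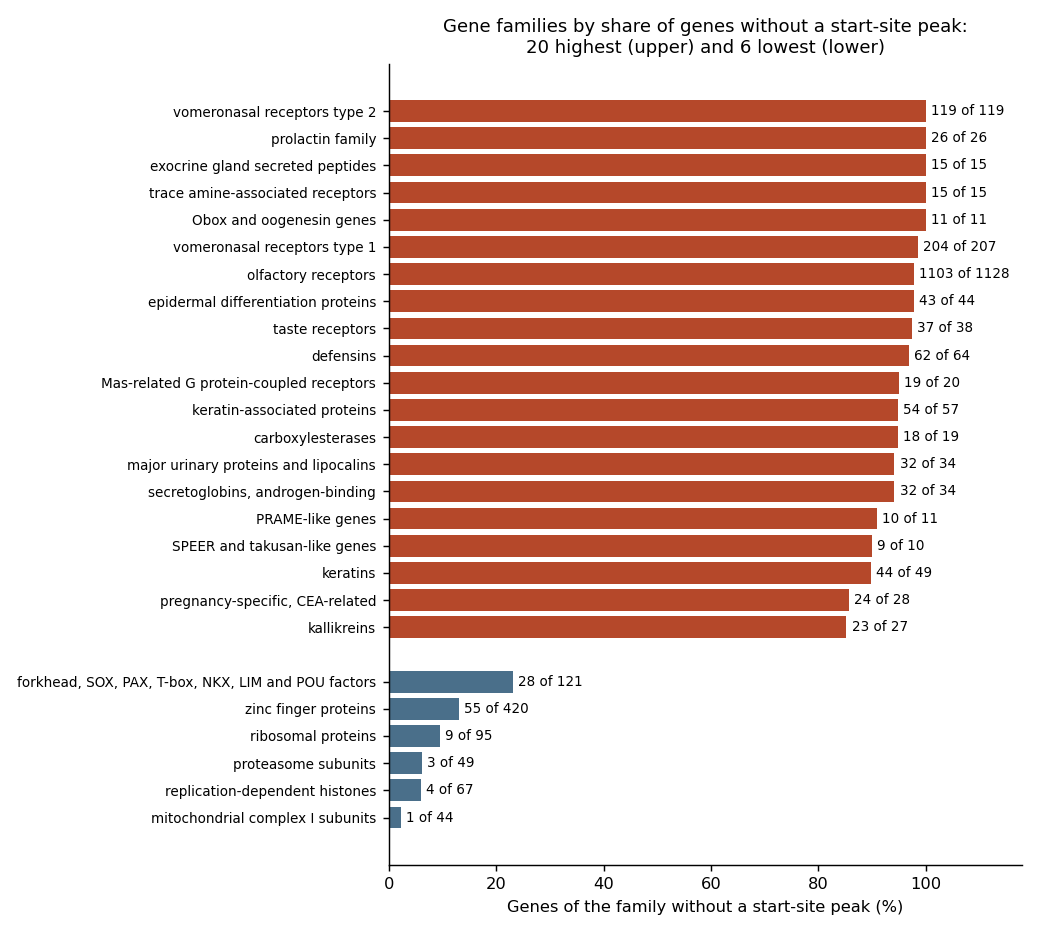
Percent of the autosomal coding genes of a family without a start-site peak in any of the 4 libraries (x axis), for the 20 families of at least 10 genes with the highest share (red) and the 6 with the lowest (blue); the count beside each bar gives the genes without a start-site peak and the genes in the family. Receptor, hormone and pheromone families reach 100%, and complex I, at 1 of 44 genes, is the lowest.

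The few exceptions in the ubiquitous complexes were mostly copies with a restricted role or copies that look like pseudogenes. Rpl3l (a muscle form of ribosomal protein L3), Rpl10l and Rpl39l (testis forms) were 3180, 169388 and 22514 bases from the nearest peak. The other 6 ribosomal genes were Rps27rt and 5 records with names ending in -ps and a number. Psma8 is the proteasome subunit of the testis, Psmb11 that of the thymic cortex, and Psme2b a copy of an activator subunit. Hist1h1t, Hist1h2ba and Hist1h2aa are histones of the testis. The fourth histone, Hist1h1d, and the complex I relative Ndufa4l2 each had a peak that covered a RefSeq start which GENCODE vM21 does not list. That start is curated for Hist1h1d and not for Ndufa4l2, whose nearest peak was 1708 bases from a curated RefSeq start.

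The marker lists of other cell types varied, beside 32.0% over all coding genes. None of 35 T cell markers and none of 14 housekeeping genes lacked a start-site peak. Of the liver markers 11 of 12 lacked one, including Alb, Ttr (transthyretin) and Cyp7a1 (the enzyme that limits bile acid synthesis), and of the pancreas and gut markers 10 of 12, including Ins1 and Ins2 (insulin). Counts were 9 of 12 for germ cells, 8 of 11 for muscle and heart, 8 of 13 for myeloid cells, 7 of 13 for stroma and endothelium, 6 of 14 for epithelium and 4 of 12 for erythroid cells and platelets. Below the share of all coding genes stood natural killer cells, with 1 of 8 (Ncr1, an activating receptor), and neurons and glia, with 3 of 13. The lists were chosen with earlier results of these data known, and the shares were not tested.

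Immune genes without a start-site peak included 4 of 19 cytokines of helper T cells (21.1%), below the 32.0% over all coding genes. For Il13 the nearest peak lay at 1370 and 1665 bases in the iTreg+PBS libraries (replicates 1 and 2) and at 1356 and 1461 bases in the iTreg+IL-4 libraries. All 4 distances were thus just over the limit, with the groups overlapping. Il10 (the inhibitory cytokine interleukin-10) had its nearest peak at 1742 and 2743 bases without the cytokine and at 2392 and 2675 bases with it. For Il3 (a growth factor of blood cells) the distances were 2444 and 17688 bases for iTreg+PBS, and 3636 and 2434 bases for iTreg+IL-4, so both conditions had a library with a peak near the start and the groups overlapped. Il22 (an inducer of epithelial defence) was between 9408 and 9423 bases away in all 4. With a limit of 2 kb, 2 of the 19 cytokines would be without a start-site peak, and with the upper 50% of each list 9 would.

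Other immune families are given beside the 32.0% over all coding genes. Chemokine ligands gave 23 of 36, among them Ccl17 and Ccl22 (ligands of CCR4), Ccl20 (the ligand of CCR6) and Cxcl13 (a guide of B cells), and type I interferons gave 11 of 20. Killer cell lectin-like receptors gave 14 of 26, including 9 Klra genes (the Ly49 receptors of natural killer cells) with 68.4% to 99.0% unique words around their 5′ ends. Interleukin ligands gave 11 of 33, close to the share of all coding genes. Outside the immune system, Hox genes (position along the body axis) gave 13 of 39, also close to it. Hoxa2 and Hoxa5 were 5895 and 6867 bases from the nearest peak, while Hoxb2 and Hoxb8 had a peak 420 and 201 bases from a RefSeq start. Those RefSeq starts are not curated, and from curated ones the nearest peak was 1211 and 1350 bases away.

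Genes without a start-site peak were clustered along the chromosomes. A total of 98 uninterrupted runs of 10 or more neighbouring coding genes held 2483 of them (37.3%), while 1659 had a coding gene with a start-site peak on both sides or stood at a chromosome end. The longest run held 200 genes over 4358037 bases, from Olfr1034 to Olfr1274-ps at chr2:86045861-90403897, 194 of them olfactory receptors. All 4 libraries together had 16 peak regions there, of which 1 was called in all 4. The second held 105 genes from Ceacam20 to Vmn1r183 at chr7:19965412-24063554, 65 of them type 1 vomeronasal receptors, with 8 regions. The others of the first 5 were olfactory receptor clusters at chr7:102702215-104137405 (81 genes, 14 regions), chr17:37279043-40840754 (65 genes, 13 regions) and chr10:129032697-130280240 (60 genes, 8 regions). By chromosome, the share was highest on 14 (44.7%) and 7 (44.5%) and lowest on 12 (21.8%).

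The distance from a start site to the nearest peak of any library had a median of 20506 bases, and 5% of the genes were within 1583 bases. For the 1426 olfactory and vomeronasal receptors the median was 63432.5 bases, and for the 5230 other genes without a start-site peak it was 14286.5 bases. A total of 1262 genes lay more than 100 kb from any peak. The farthest was Slitrk6 (a membrane protein that guides neurites), at 919451 bases, followed by Dcc (a receptor for netrin) at 831811 bases.

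**Figure D3:**
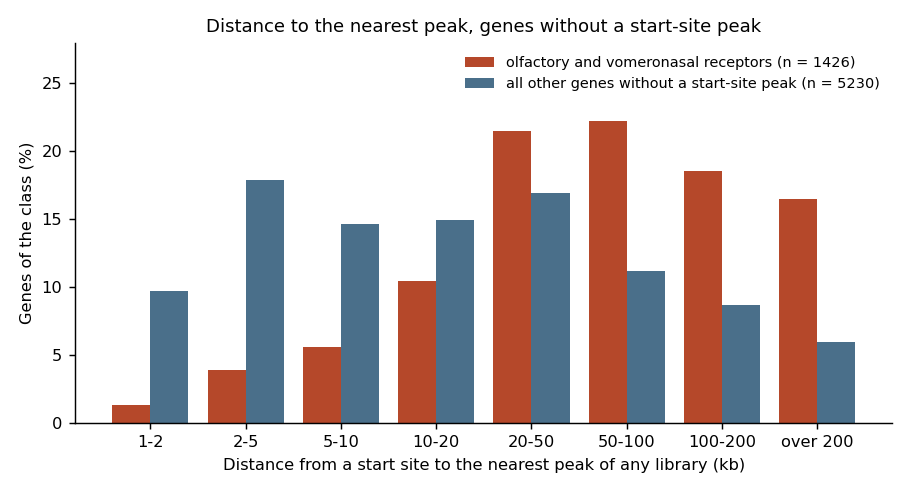
Distance in kb from a start site to the nearest peak of any library (x axis, bins of unequal width) against the percent of genes in the class (y axis), for the 1426 olfactory and vomeronasal receptors (red) and the 5230 other genes without a start-site peak (blue). Of the receptors 57.2% lie beyond 50 kb, and of the other genes 25.8%.

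At the limit itself the classes met without a gap. The 5 genes just beyond it were Asxl3, Gm8439, Gm49384, Grhl2 and Kncn, with the nearest peak at 1002 to 1006 bases, and the 5 just inside were Gm10643, Gm10799, Fcrla, Ppp1r27 and Slc15a1, at 995 to 1000 bases. In the 100 bases beyond the limit lay 76 genes, and in the 100 bases inside it lay 80 of the others. Asxl3 shows how 1 library can decide, since its nearest peak was 1002 bases away in iTreg+IL-4 replicate 1 and 640086 to 640093 bases away in the other 3.

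The annotation and the mappability of the sequence move with membership. The gene records were shorter than those of the other genes (median 8515 against 23271 bases), and 36.3% had a single annotated transcript, against 11.3%. Fewer than 50% of the 50-base words within 1 kb of the 5′ end occurred once in the genome for 643 genes (9.66%), against 226 (1.60%) of the others. The part of mappability in the missing peaks was not tested. Leaving these genes out gave 6013. RefSeq starts were found for 6070 genes, and 203 of these had a peak within 1 kb of such a start, 43 of them at a curated transcript. Among the 43 was Sf3b5, which encodes a subunit of a splicing factor used in every cell, with a peak on its RefSeq start and none within 2666 bases of its GENCODE starts.

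Gene-body peaks, meaning peaks that touch the gene record with no base within 1 kb of any start of that gene, were present in a minority of the genes without a start-site peak. At least 1 library had one in 1588 genes (23.9%), and 892 genes (13.4%) had a region called in all 4 libraries, where peaks sharing at least 1 base were merged into a region. Over all autosomal coding genes the share with such a region was 32.7%, and over the other genes it was 41.7%. A region in all 4 libraries that also kept clear of every GENCODE start of any gene was found in 793 (11.9%), against 30.7% of all coding genes. Of the 892 genes, 612 had 1 such region, 280 had 2 or more and 50 had 5 or more.

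**Figure D4:**
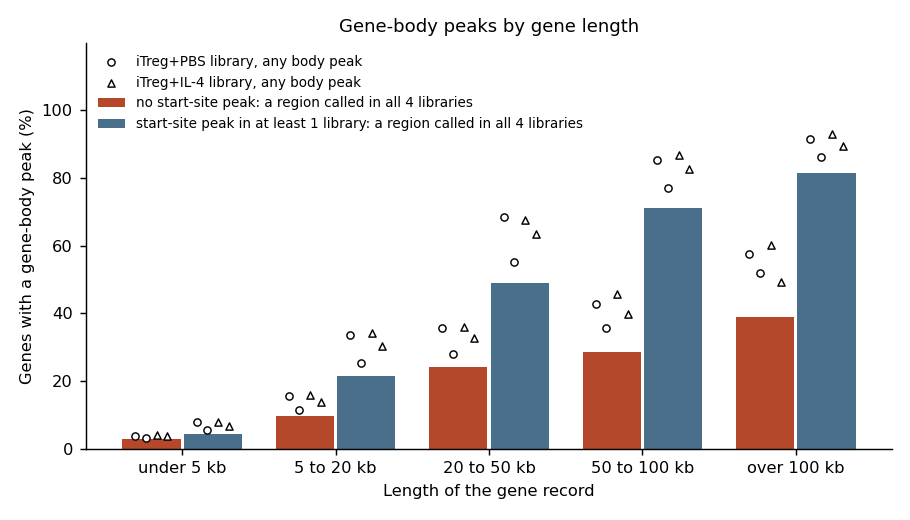
Percent of genes with a gene-body peak (y axis) by length of the gene record (x axis), for genes without (red) and with (blue) a start-site peak; bars give genes with a region called in all 4 libraries, and open circles (iTreg+PBS) and triangles (iTreg+IL-4) give genes with any body peak in a single library. In the class over 100 kb the bars stand at 38.9% and 81.4%, and under 5 kb at 2.90% and 4.35%.

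A longer body has more room for a peak, so the classes were also compared by length. Within each class of length the share was still lower for genes without a start-site peak, as the plot of body peaks by gene length shows. From 20 to 50 kb, 232 of 961 genes without a start-site peak (24.1%) and 1926 of 3930 others (49.0%) had a region in all 4 libraries. Per Mb of gene body, genes without a start-site peak had 10.8, 7.43, 11.4 and 9.24 peaks in iTreg+PBS replicates 1 and 2 and iTreg+IL-4 replicates 1 and 2, and the other genes 43.3, 29.0, 44.0 and 37.6. The ratio was thus between 0.245 and 0.259 in every library, with a geometric mean of 0.253 (4 of 4 libraries below 1; exact sign-flip test over libraries, two-sided, p = 0.13, the smallest this design allows). Start-site peaks of these same 4 libraries formed the 2 classes, so the test gives no independent support for a difference between them. Among genes of 20 to 50 kb alone the ratio was 0.434.

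The 892 genes held 1415 distinct regions called in all 4 libraries. Of these, 123 were within 1 kb of a coding start of another gene, 62 near a noncoding start only and 1230 (86.9%) away from every start. Leaving out regions that also lie in another coding record left 1107 regions in 744 genes, 933 centred in an intron and 167 in an exon. They lay at a median of 22906 bases from the 5′ end, 112 of them 1 to 2 kb and 168 over 50 kb from the nearest start of their gene. Ranked within each list by −log10 of the q-value, and taking the library where the region ranked lowest, a median of 59.8% of peaks ranked higher than these regions. The value was 55.0% for all regions away from starts that were called in all 4 libraries and 17.6% for regions within 1 kb of a coding start. Of the 1415 regions, 153 had fewer than 50% unique 50-base words, and without these 786 genes were left.

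The share of a family with a body region in all 4 libraries stands beside 13.4% over all genes without a start-site peak. The latter share rose with gene length. It was 2.90% under 5 kb, 9.75% from 5 to 20 kb, 24.1% from 20 to 50 kb, 28.7% from 50 to 100 kb and 38.9% over 100 kb. No family was compared with genes of its own length, and no family was tested. Olfactory receptors had a region called in all 4 libraries in 7 of 1103 genes (median length 6024 bases), type 1 vomeronasal receptors in 1 of 204, and taste receptors, defensins, keratin-associated proteins and the prolactin family in none. Solute carriers (membrane transporters, median length 38965.5 bases) had one in 33 of 108 genes. Voltage-gated and related ion channels had one in 16 of 51 (median length 40451 bases) and C-type lectins in 6 of 23 (14638 bases). Families of very long genes were collagens, with 6 of 21 (119841 bases), and glutamate receptors, with 5 of 14 (395332 bases). Cadherins outside the clusters were also long, with 8 of 20 (149262 bases). The 9 clustered protocadherins counted here shared their regions, none of them away from the starts of neighbouring genes.

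Counting every region, the 12 genes with the most were Arhgap26 (14), Acoxl (13), Atp5o, Ipcef1 and Pakap (12 each), Gm37013, Gm37388, Gm42416 and Oprm1 (11 each), and Pcdhga1, Pcdhga2 and Pcdhga3 (10 each). Most of these are records that span or overlap other coding genes. The symbols Arhgap26 and Atp5o each also name a second record, and Pakap had a peak on a RefSeq start. With regions in another coding record or near any start left out, Acoxl kept 12, Arhgap26 2, Ipcef1 1 and the other 9 none.

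Acoxl, a relative of the peroxisomal acyl-CoA oxidases, came second in the first count and led the second. It had 22 and 15 body peaks in iTreg+PBS replicates 1 and 2 and 20 and 17 in iTreg+IL-4 replicates 1 and 2, in a record of 284998 bases, and its starts were 6439 to 6511 bases from the nearest peak in each library. The nearest coding gene with a start-site peak in all 4 libraries, counted from its best ranked region, was Bcl2l11 (the pro-apoptotic BCL-2 family protein BIM), 52687 bases away. Myo3b, a class III myosin of sensory cells, had 14 and 12 body peaks without and 15 and 16 with IL-4, and 9 regions called in all 4. A RefSeq start of Myo3b that GENCODE vM21 does not list was covered by a peak. That start is not curated, and the nearest peak was 1606 bases from a curated one. The conditions overlapped in Acoxl, while in Myo3b both counts with IL-4 were above both without it, a difference that was not tested.

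The next 10 genes in the count had 6 such regions each. Il23r (the receptor subunit for interleukin-23) had 9, 7, 9 and 8 body peaks in iTreg+PBS replicates 1 and 2 and iTreg+IL-4 replicates 1 and 2, and the nearest peak lay 8308 bases from its starts. Its best ranked region, at chr6:67459280-67459736, lay in an intron, and 14.8% to 34.6% of peaks ranked higher. Asb2 (the substrate-binding subunit of a ubiquitin ligase) had 8, 6, 8 and 9 body peaks over only 34860 bases. Ccl1 (a chemokine of activated T cells) had 6, 7, 8 and 6, over a record of 129034 bases. Its regions at chr11:82183114-82183917 and chr11:82214183-82214855 lay 3302 and 34371 bases upstream of the nearest Ccl1 start. They fall inside the record because it extends to a start farther upstream. The other 7 were BC049352, Fer1l6 (a ferlin), Gas7 (an adaptor of neurons), Kcnj15 (an inward rectifier potassium channel), Myrfl, Pebp4 and Slc1a2 (the glutamate transporter of glia). Gas7 had a peak 562 bases from a curated RefSeq start, Fer1l6 had one on a RefSeq start that is not curated, and BC049352 had one 643 bases from such a start.

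The body regions of Il10 and Asb2 are printed as examples of open DNA inside genes without a start-site peak. Each is the central 300 bases of the region in the GRCm38.p6 reference, forward strand, with CpG in capitals. In contrast to a CpG-rich promoter they held 1 and 3 CpG.
Il10, chr1:131022650-131022949, forward strand: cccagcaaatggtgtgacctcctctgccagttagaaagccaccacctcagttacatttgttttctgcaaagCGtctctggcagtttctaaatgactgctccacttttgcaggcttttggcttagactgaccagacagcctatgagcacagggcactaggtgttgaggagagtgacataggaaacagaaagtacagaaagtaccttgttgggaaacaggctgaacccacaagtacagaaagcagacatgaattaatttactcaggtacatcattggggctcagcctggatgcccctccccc
Asb2, chr12:103331609-103331908, forward strand: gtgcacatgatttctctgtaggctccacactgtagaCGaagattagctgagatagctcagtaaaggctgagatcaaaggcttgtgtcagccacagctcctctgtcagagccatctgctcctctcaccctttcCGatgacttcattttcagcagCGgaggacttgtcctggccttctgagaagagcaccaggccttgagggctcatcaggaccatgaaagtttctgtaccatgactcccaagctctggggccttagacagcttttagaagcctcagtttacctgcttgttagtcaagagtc

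The Il10 region, chr1:131022237-131023363, lay in an intron, with its centre 2955 bases from the 5′ end of the gene. It was called in all 4 libraries, with 10.1% and 19.5% of peaks ranked higher in iTreg+PBS replicates 1 and 2 and 9.95% and 15.5% in iTreg+IL-4 replicates 1 and 2. The Asb2 region, chr12:103331277-103332241, lay in an intron, with its centre 24242 bases from the 5′ end and its edge 3343 bases from the nearest start, and was among the upper ranks, with 2.22%, 5.37%, 1.47% and 3.55% of peaks ranked higher. In both, iTreg+PBS replicate 2 gave the lowest rank and the groups overlapped.

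The best ranked regions in a gene body, with regions near any GENCODE start or in another coding record left out, belonged to Clec11a, Dthd1, 2900011O08Rik, Mybpc1, Sf3b5, Asb2, Fbxl22, Cnga1, 4932438H23Rik, Muc4, Nup160 and Chrna9. In the library where each ranked lowest, between 3.16% (Clec11a) and 8.48% (Chrna9) of peaks ranked higher. The region of Sf3b5 covers its RefSeq start, so it is a body region only by the GENCODE starts. Chrna9 and 4932438H23Rik also had a peak on a RefSeq start that is not curated. Clec11a, a secreted growth factor of blood and bone, had its region 1064 bases from the nearest of its starts, just beyond the limit. Dthd1, a death domain protein, had one 44672 bases from its 5′ end at chr5:62858074-62858916. Mybpc1 (a myosin-binding protein of slow muscle), Cnga1 (the photoreceptor channel gated by cyclic GMP), Muc4 (a membrane mucin) and Chrna9 (a nicotinic receptor subunit of hair cells) are known for other tissues. Nup160 encodes a subunit of the nuclear pore that every cell needs; its region was centred in an exon 2132 bases from the 5′ end, and the nearest peak was 1673 bases from a GENCODE start and 1374 bases from a RefSeq start.

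Without these exclusions, the highest rank of any body region was in Myo3a (a class III myosin of hearing), at chr2:22588670-22590178. This region lay within 1 kb of an annotated noncoding start. Only 0.00389%, 0.0141%, 0.00508% and 0.00738% of peaks ranked higher in iTreg+PBS replicates 1 and 2 and iTreg+IL-4 replicates 1 and 2. Of its 50-base words, 43.8% occurred once in the genome and 42.5% also occurred in the mitochondrial genome, whose DNA carries no nucleosomes. Of 1415 regions, 2 shared any such word. The 300 bases of the region richest in them are printed with those bases in capitals, 277 in all; how far mitochondrial reads contributed to the peak was not tested.
Myo3a, chr2:22589595-22589894, forward strand: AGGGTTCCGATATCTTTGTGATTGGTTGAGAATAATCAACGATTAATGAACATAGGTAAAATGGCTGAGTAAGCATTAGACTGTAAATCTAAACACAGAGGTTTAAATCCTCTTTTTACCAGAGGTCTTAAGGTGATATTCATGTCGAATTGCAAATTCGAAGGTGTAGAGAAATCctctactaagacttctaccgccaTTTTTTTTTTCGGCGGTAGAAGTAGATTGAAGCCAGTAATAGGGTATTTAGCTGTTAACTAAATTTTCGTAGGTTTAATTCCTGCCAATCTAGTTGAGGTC

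After Myo3a, the best ranked by this count were Gm45716, Xcr1, Gm42906, Gm20662, Arhgap26, Gm21983, Gm10563, Gm49337 and Gm49776. Like the Myo3a region, all 9 lay within 1 kb of an annotated start of another gene, a coding one for every gene but Gm42906. Xcr1, the chemokine receptor of cross-presenting dendritic cells, had its nearest peak 7317 bases from its own starts.

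Of the 73 listed marker genes and cytokines without a start-site peak, 10 had a body region called in all 4 libraries, each away from every start, a share close to the 13.4% over all genes without a start-site peak. They were Il10, Fcgr1 (a receptor for IgG), Acta2 (smooth muscle actin), Hnf4a (a liver and gut transcription factor), Apoa1 (an apolipoprotein of the liver), Tnnt2 (cardiac troponin T), Zp3 (an egg coat protein), Stra8 (a factor of meiosis), Nanog (a factor of pluripotent cells) and Ddx4 (a germ cell RNA helicase). Stra8 had 3 regions and Hnf4a and Acta2 had 2. The Nanog region, at chr6:122711269-122712090, was in an exon and had 37.0%, 34.3%, 43.8% and 34.2% of peaks ranked higher in iTreg+PBS replicates 1 and 2 and iTreg+IL-4 replicates 1 and 2.

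The longest genes with no body peak in any library were Naaladl2 (1346160 bases), Sgcz, Opcml, Dcc and Nlgn1 (906246 bases). Sgcz encodes a sarcoglycan, Opcml a neuronal adhesion protein and Nlgn1 a neuroligin of synapses. Opcml and Nlgn1 were at least 462932 and 392592 bases from a peak at their starts in each library.

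The share of these genes with a body peak overlapped between the conditions in the lists as deposited. A body peak was present in 20.1% and 16.2% of genes without a start-site peak in iTreg+PBS replicates 1 and 2, and in 20.8% and 18.1% in iTreg+IL-4 replicates 1 and 2. The means were 18.2% ± 2.77 (SD, n = 2) and 19.4% ± 1.91 (SD, n = 2), a difference of 1.25 percentage points within the spread of the replicates (exact permutation test, two-sided, p = 0.667; the smallest p of 2 against 2 is 0.333). The share followed the number of autosomal peaks in the list, which was lowest in iTreg+PBS replicate 2 (55176) and highest in iTreg+IL-4 replicate 1 (76783). The difference was 3.34 and -0.711 without iTreg+PBS replicates 1 and 2, and -0.0218 and 2.63 without iTreg+IL-4 replicates 1 and 2. With lists of equal length it was -0.698, and both iTreg+IL-4 libraries then lay below both iTreg+PBS libraries (exact permutation test, two-sided, p = 0.333, the smallest possible). The number of coding genes lacking a start-site peak in a single library was highest in the shortest list and lowest in the longest, at 7124 and 7828 for iTreg+PBS and 7017 and 7402 for iTreg+IL-4.

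**Figure D5:**
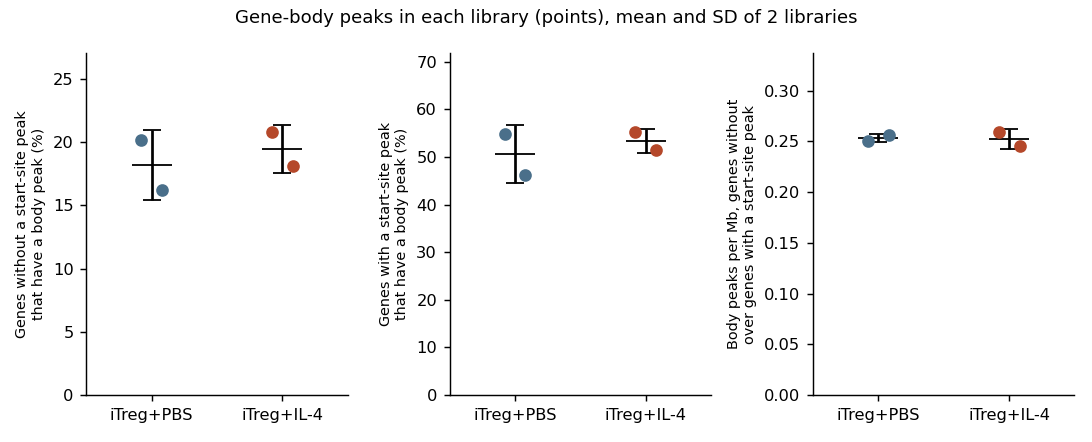
Percent of genes without a start-site peak that have a body peak (left), the same for genes with a start-site peak (middle) and the ratio of body peaks per Mb between the classes (right), for each library (points) with mean and SD of 2 libraries per condition. The conditions overlap in all panels, and the ratio stays between 0.245 and 0.259.

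A body region present in the peak lists of both IL-4 libraries but of none without IL-4 was found in 112 genes without a start-site peak (1.68%), beside 5.24% of all autosomal coding genes. The reverse pattern was found in 33 (0.496%), beside 1.3%. Both shares were below those of all coding genes, as for the regions called in all 4 libraries. Neither was compared by gene length, and genes without a start-site peak had shorter records (median 8515 bases, against 23271 for the others). The best ranked in the first set were in Adad1 (an RNA-binding protein of the testis), Hormad2 (a meiotic chromosome protein), Svopl (a synaptic vesicle protein relative), Dnah12 (a dynein heavy chain) and Egflam (a matrix protein of synapses). Even these stood in the middle of the lists: for Adad1 55.3% and 55.6% of peaks ranked higher. In the second set were Kcnip1 (a potassium channel partner), Arhgap26, Jph2 (a junctophilin of the heart), Acoxl and Sez6l, and for Kcnip1 60.7% and 65.9% of peaks ranked higher. Lists cut to the same length gave 78 and 46, and with 1 library left out the first count was 447 without iTreg+PBS replicate 1, 153 without iTreg+PBS replicate 2, and 289 and 432 without iTreg+IL-4 replicates 1 and 2. The second count was 158, 313, 140 and 56 in the same order. No share over all coding genes was counted for these settings. The lack of a peak means that no enrichment passed the caller's threshold, and the depth of the libraries is unknown, so closed DNA and low depth cannot be told apart in a single list.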

How the data were processed

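ATAC-seq was performed on mouse CD4+ T cells, with 2 iTreg+PBS and 2 iTreg+IL-4 libraries grouped by the sample labels. The authors mapped read pairs to mm10 with Bowtie2 2.2.5 and called peaks in each library with MACS2 2.1.2, per the submitters' processing notes, which also name bedtools 2.16.2. The deposited lists give the position of each peak, a score taken to be −log10 of the peak's q-value, and a pileup signal (peak height) as the authors gave it. The signal was not used, and −log10 values served only to rank peaks within a list. The columns carry no names, so these meanings were inferred from the values. How duplicate and mitochondrial reads were treated is not given in the sources used here. Reads were not analysed, so sequencing depth is unknown and peak calls carry no interval.

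Positions are given counting from 1. A start-site peak had its nearest edge within 1000 bases of any GENCODE vM21 transcript start of the gene. Peaks sharing at least 1 base were merged into regions. Families were assigned by gene symbol, with the first matching pattern. Unique words were 50-base words taken every 20 bases within 1 kb of the 5′ end, matched exactly on both strands of GRCm38. RefSeq start sites and promoters came from GRCm38.p6, with genes matched by Entrez identifier. CpG and motifs were counted for all genes from 250 bases before to 50 bases after the 5′ end of the gene record. Python 3.11.15, numpy 2.4.6, pandas 2.3.3, numba 0.67.0 and matplotlib 3.10.9 were used. On simulated lists for 9678 genes, all 200 genes planted without a start-site peak and all 85 planted body regions were recovered. Conditions were compared by exact permutation of libraries, and classes of genes by an exact sign-flip test over libraries.

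Genes are named by rule: families of at least 10 genes, listed markers, the 12 with most body regions, the 10 with the best ranked, the 5 on either side of the limit, the 8 with the CpG-richest promoters, the 5 longest runs and the 5 longest genes without body peaks, and the 5 best ranked per condition. Counts with overlapping records left out, and the genes named from them, were added once values were known. The genes and lists were chosen with earlier results of these data known. Of the genes, 17 share a symbol with a second record. The result for a single marker list is not reported here.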

Additional observations from a re-analysis of the deposited data

How the results depend on the processing

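The number of genes without a start-site peak was 8550 with the upper 50% of each list, 7382 with lists of equal length, 7070 with a limit of 500 bases, 6128 with 2 kb, and 6453 with RefSeq starts added. It was between 6684 and 6883 with 1 library left out. The number with a body region in all libraries was between 661 (2 kb) and 1094 (500 bases) when rank, length, limit, transcript set or library was varied, and 798 with RefSeq starts added, 872 among genes with at least 50% unique words and 786 with regions of at least 50% unique words. The last 3 settings, the RefSeq starts, the exclusion of overlapping records (744) and the class of 20 to 50 kb (0.434) were added after seeing the data.

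The difference between conditions in the share of genes with a body peak turned to -0.698 percentage points with lists of equal length (exact permutation test, p = 0.333) and ranged from -0.711 to 3.34 with 1 library left out. The labels do not say that a replicate number marks a shared batch, and with the replicate block the difference was 1.25 (exact sign-flip test over 2 pairs, p = 0.5, the smallest possible). The correlation of rank deviations between same-numbered libraries, over 1415 regions and 2 pairs, was 0.369. The number of genes with a region called only with IL-4 was 59 with the upper 50% of each list and from 153 to 447 with 1 library left out, where fewer libraries have to meet the condition. The number called only without IL-4 was 12 with the upper 50% of each list and from 56 to 313 with 1 library left out. Of the 62 alternatives to the 5 main results, 55 kept the direction or stayed within 1.5 times the value reported. The density ratio stayed below 1 under every alternative run, each with gene classes formed from peaks of these same libraries.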
